A study of Mus musculus with 4 samples.

Results

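Heavy-chain variable genes, the genes whose symbol starts with Ighv, were followed in tumour-infiltrating B lineage cells under agonists of STING and of the lymphotoxin-β receptor (LTbR). The 183 Ighv genes of the count tables were scored in every deposited cell. A cell was taken as a member when it held 20 or more Ighv unique molecular identifiers (UMIs, each standing for 1 captured RNA molecule) and 80% or more of them came from 1 Ighv gene. By this rule 870 of 55090 cells were members. All 4 groups were male C57BL/6 mice with subcutaneous KPC tumours, grown from a pancreatic cancer line of a mouse with conditional mutant alleles, Trp53 included, switched on by Pdx1-Cre. The mice were untreated, or received the STING agonist (ADU-S100, injected into the tumour), the LTbR agonist (an agonistic antibody given into the peritoneum) or both, here called the combination. Tumours were resected, pooled within a group, dissociated and sorted for live CD45+ leukocytes. Each group gave 1 library of the 5′ single-cell assay and had no replicate among the data used here. Sets of 4 values run in the order untreated, STING agonist, LTbR agonist, combination. Shares carry exact Clopper-Pearson 95% intervals in brackets, and these reflect the number of cells counted alone, with no part for differences among mice or libraries. Cells of 1 library, and the daughter cells of 1 expanded B cell, share their source and are not replicates of a treatment.

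An antibody heavy chain is assembled in each developing B cell by joining 1 V gene, 1 D gene and 1 J gene, after which the other allele is shut off, so a B cell carries a single productive V gene and hands it to its progeny. The light chain is assembled in the same way from kappa (Igkv) or lambda (Iglv) genes. On activation the cell can exchange the IgM constant region for IgG, IgA or IgE while it keeps its V gene, and plasma cells, the secreting end stage, hold very large amounts of the finished transcripts. Cells that share heavy and light V genes may descend from 1 clone, although the same pair can also arise independently. The junction between V, D and J, which would settle this, is not in count tables.

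The 5 heavy-chain V segments that the results below turn on are shown with the light-chain V segments of the 3 heavy and light pairs found in all libraries. Each is the last 300 bases of the reference transcript of GENCODE M21 (GRCm38), matched by gene identifier, 5′ to 3′. Capitals mark the stretch from the conserved cysteine codon near the end of the V segment to its last base, where the third complementarity-determining region begins.
Ighv14-2: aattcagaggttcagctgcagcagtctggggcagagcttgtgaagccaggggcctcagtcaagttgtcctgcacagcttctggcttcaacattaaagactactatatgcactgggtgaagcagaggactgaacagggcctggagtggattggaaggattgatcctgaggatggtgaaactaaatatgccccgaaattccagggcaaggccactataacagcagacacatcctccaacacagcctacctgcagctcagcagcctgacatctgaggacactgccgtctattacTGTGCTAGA
Ighv3-6: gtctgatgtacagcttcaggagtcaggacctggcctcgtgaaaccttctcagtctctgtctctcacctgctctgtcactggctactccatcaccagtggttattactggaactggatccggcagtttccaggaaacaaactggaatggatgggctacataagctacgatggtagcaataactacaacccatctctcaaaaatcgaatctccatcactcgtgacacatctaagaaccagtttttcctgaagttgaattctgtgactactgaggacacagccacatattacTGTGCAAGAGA
Ighv8-8: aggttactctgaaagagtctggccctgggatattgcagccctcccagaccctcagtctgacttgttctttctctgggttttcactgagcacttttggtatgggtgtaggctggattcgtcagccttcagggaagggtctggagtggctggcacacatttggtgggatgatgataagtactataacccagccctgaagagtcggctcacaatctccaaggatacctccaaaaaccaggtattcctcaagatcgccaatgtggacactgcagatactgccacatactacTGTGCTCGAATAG
Ighv1-39: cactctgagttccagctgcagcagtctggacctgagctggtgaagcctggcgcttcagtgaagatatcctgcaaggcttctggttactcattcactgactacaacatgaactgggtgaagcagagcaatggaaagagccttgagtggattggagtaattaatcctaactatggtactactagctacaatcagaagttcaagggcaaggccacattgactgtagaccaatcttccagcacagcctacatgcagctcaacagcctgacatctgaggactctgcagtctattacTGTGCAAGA
Ighv11-2: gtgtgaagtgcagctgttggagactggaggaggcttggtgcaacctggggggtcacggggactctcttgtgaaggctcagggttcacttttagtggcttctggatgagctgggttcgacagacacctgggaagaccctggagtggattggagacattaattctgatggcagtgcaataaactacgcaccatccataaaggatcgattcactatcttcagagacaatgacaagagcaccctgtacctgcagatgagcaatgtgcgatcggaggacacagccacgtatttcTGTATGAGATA
Igkv4-74: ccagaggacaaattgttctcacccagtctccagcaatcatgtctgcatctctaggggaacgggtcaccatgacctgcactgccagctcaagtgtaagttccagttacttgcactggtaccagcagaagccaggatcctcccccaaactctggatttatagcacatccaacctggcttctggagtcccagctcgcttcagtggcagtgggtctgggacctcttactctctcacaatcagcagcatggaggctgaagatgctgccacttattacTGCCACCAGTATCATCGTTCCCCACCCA
Igkv12-44: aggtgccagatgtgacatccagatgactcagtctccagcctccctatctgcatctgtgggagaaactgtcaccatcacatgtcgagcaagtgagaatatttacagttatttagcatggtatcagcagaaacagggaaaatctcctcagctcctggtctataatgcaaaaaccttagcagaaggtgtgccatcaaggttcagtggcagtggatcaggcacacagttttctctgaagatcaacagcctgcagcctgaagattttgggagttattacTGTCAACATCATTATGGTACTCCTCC
Iglv1: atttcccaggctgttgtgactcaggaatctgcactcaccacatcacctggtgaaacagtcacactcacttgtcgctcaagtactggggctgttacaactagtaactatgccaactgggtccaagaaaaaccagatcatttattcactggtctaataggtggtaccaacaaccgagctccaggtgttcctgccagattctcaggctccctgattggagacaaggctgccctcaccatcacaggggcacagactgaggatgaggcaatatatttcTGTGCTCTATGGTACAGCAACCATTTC
These are germline reference sequences, not sequences of the cells. Over the aligned bases the 5 heavy segments were 49.3 to 77.3% identical to each other, with Ighv14-2 and Ighv1-39 the closest pair. Over all 75 genes that led in a member, the nearest other Ighv gene was 95.7% identical in the median (range 80.1 to 100%). For Ighv3-6 the nearest gene was Ighv3-1 (93.3%), for Ighv8-8 it was Ighv8-11 (96.3%), for Ighv14-2 it was Ighv14-1 (97.0%) and for Ighv1-39 it was Ighv1-42 (92.7%). Ighv11-2 and Ighv11-1 were 98.7% identical, and the counts of Ighv11-2 are uncertain to that extent. Genes with a relative at 98% or more led in 61 members (7.01%).

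The libraries held 8730, 15404, 14634 and 16322 cells with a median of 4712, 3187, 3730.5 and 2157.5 UMIs, so the combination library was the shallowest. Members were deeper than the rest, with medians of 14783, 21606.5, 13193 and 7607.5 UMIs. Their B lineage label held against markers. Jchain, which links antibody subunits, was found in 94.8, 100, 100 and 98.7% of members, Mzb1, an antibody-folding factor of plasma cells, in 74.0, 96.0, 95.4 and 95%, and Cd79a, the signalling chain of the B cell receptor, in 68.8, 90, 86.1 and 72.5%. Sdc1 (CD138), a plasma cell marker, was found in 53.2, 64.0, 70.8 and 55.2%, and Ms4a1 (CD20), which plasma cells lose, in 15.6, 16.0, 20.6 and 18.4%. The members were thus largely of the secreting kind. The T cell marker Cd3e was found in 3.90, 0, 1.07 and 1.52%, whereas Lyz2 of macrophages was found in 24.7, 32.0, 35.9 and 37.2%. The summed level of the 6 macrophage and monocyte markers was 2999, 1131, 945 and 1218 CPM (counts scaled to a library total of 1e6) in members against 6865 to 8576 CPM in other cells. One alternative left out members with 10 or more UMIs of T cell, macrophage and neutrophil markers together, which were 16, 14, 45 and 74 members. The part of the macrophage markers was not tested separately. The 6 T cell markers summed to 30.2, 1.85, 16.7 and 30.6 CPM in members and to 106 to 353 CPM in other cells, the 4 neutrophil markers to 64.1, 550, 71.8 and 128 CPM against 825 to 9781 CPM, and the 4 dendritic cell markers to 17.4, 2.77, 7.70 and 13.9 CPM against 91.8 to 141 CPM. The 3 natural killer markers were at 0 in members of the untreated and STING agonist libraries and at 0.513 and 0.758 CPM in the other two. The 4 carcinoma markers summed to 80.6, 76.7, 89.8 and 76.0 CPM in members against 52.2 to 116 CPM in other cells. Nearly all of the sum in members was Epcam, at 77.9, 74.0, 88.5 and 74.2 CPM. Epcam was found in 37.7, 58.0, 49.5 and 33.5% of members and in 1.29, 0.762, 1.55 and 1.48% of other cells. The keratins were rare in members, with Krt8 in 1.30, 0, 0 and 0.433%, Krt18 in 2.60, 6.00, 1.78 and 1.08% and Krt19 in 0% throughout.

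**Figure D1:**
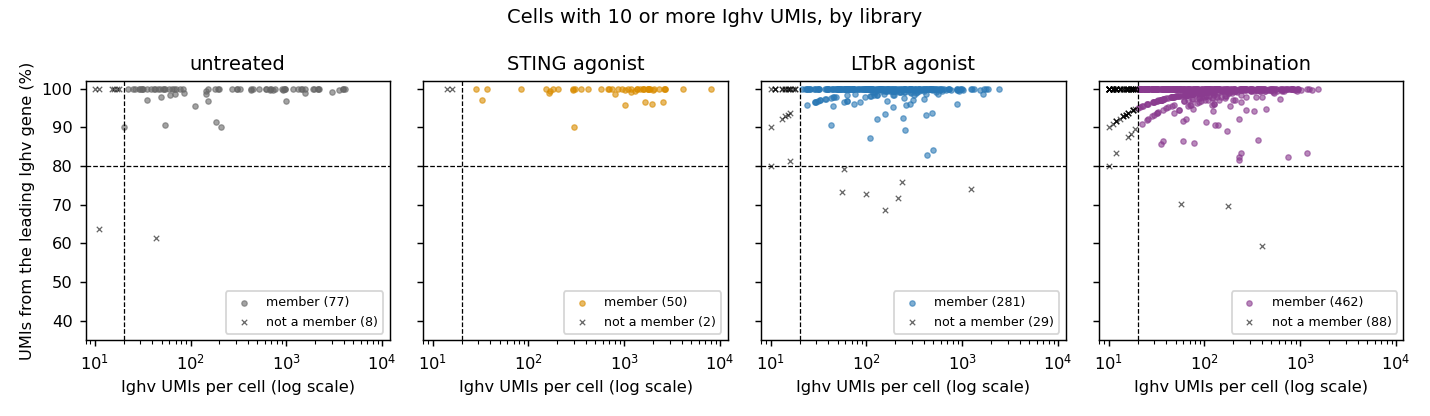
Cells with 10 or more Ighv UMIs in each library, plotted by their Ighv UMIs (horizontal, log scale) and by the percentage of these UMIs from the leading gene (vertical), with dashed lines at 20 UMIs and 80%. Nearly all cells right of the vertical line sit at or near 100%, and 1, 0, 7 and 3 cells fall below the horizontal line.

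Members were most frequent in the combination library and least frequent with the STING agonist alone. There were 77, 50, 281 and 462 of them, or 0.882% (0.697 to 1.10%), 0.325% (0.241 to 0.428%), 1.92% (1.70 to 2.16%) and 2.83% (2.58 to 3.10%) of deposited cells. None of these intervals overlapped. Against untreated, the share was 0.368 times as large with the STING agonist (0.258 to 0.525), 2.18 times with the LTbR agonist (1.69 to 2.80) and 3.21 times with the combination (2.52 to 4.08). With every cell thinned to 2000 UMIs and shallower cells left out, these ratios were 0.599, 2.42 and 4.90. A share of deposited cells also depends on the other cells of the library. The neutrophil marker S100a8 was found in 7.62, 44.8, 11.1 and 13.5% of other cells. T cells, as defined below, were also scarcer with the STING agonist, at 541 of 15404 cells against 1171 of 8730 untreated. The part of these other cells in the ratios was not tested. Leading genes were clear-cut, with a median of 100% of Ighv UMIs from 1 gene in every library. Just inside the limit on UMIs, 2, 0, 6 and 22 members had 20 to 24 Ighv UMIs, and just outside it 4, 1, 10 and 36 cells had 15 to 19 with 80% or more from 1 gene. Just inside the limit on the share, 0, 0, 4 and 11 members had 80 to 90% from 1 gene, and 1, 0, 7 and 2 cells lay at 60 to 80%. Median Ighv UMIs per member were 198, 1130, 156 and 100, and a single cell of the STING agonist library held 8087 of them, or 12% of all Ighv UMIs of that library.

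Of the 183 genes, 113 are annotated as V genes and 70 as V pseudogenes in GENCODE M21. A member was found for 75 of the V genes and for none of the pseudogenes. The other 38 V genes led in no member. Of the 16 families in the tables, 14 were used. Ighv1, by far the largest mouse family, led in 396 members, Ighv3 in 120, Ighv8 in 109, Ighv14 in 73 and Ighv5 in 47. Usage was uneven, since 8 genes led in members of all 4 libraries, whereas 27 did so in only 1 library and 13 in a single cell.

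Ighv14-2, Ighv3-6 and Ighv1-39 were the commonest genes of the untreated, LTbR agonist and combination libraries, and Ighv14-2 and Ighv8-8 shared the first place with the STING agonist, at 7 of 50 members each. Ighv14-2 was the commonest gene of untreated tumours, with 25 of 77 members (32.5%, 22.2 to 44.1%). It led in 7 of 50 with the STING agonist (14%, 5.82 to 26.7%), in 8 of 281 with the LTbR agonist (2.85%, 1.24 to 5.53%) and in 13 of 462 with the combination (2.81%, 1.51 to 4.76%). The untreated interval lay above those of the LTbR agonist and the combination and overlapped that of the STING agonist. Cells led by Ighv14-2 were thus most numerous in the library with the second lowest number of members.

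Ighv3-6 was the commonest gene with the LTbR agonist, where it led in 65 of 281 members (23.1%, 18.3 to 28.5%). It led in 12 of 77 untreated members (15.6%, 8.32 to 25.6%), in 6 of 50 with the STING agonist (12%, 4.53 to 24.3%) and in 28 of 462 with the combination (6.06%, 4.06 to 8.64%). Between the LTbR agonist and the combination its share was 17.1 percentage points lower, the largest such difference downwards among genes with 10 or more members over both libraries. Ighv8-8 was the second gene of both these libraries, with 37 of 281 (13.2%, 9.44 to 17.7%) and 42 of 462 (9.09%, 6.63 to 12.1%). It led in 6 of 77 untreated members (7.79%, 2.91 to 16.2%) and in 7 of 50 with the STING agonist (14%, 5.82 to 26.7%), so all 4 of its intervals overlapped.

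Ighv1-39 was the commonest gene of the combination, with 58 of 462 members (12.6%, 9.67 to 15.9%). It led in 6 of 281 with the LTbR agonist (2.14%, 0.788 to 4.59%) and in no member of the untreated (up to 4.68%) or STING agonist (up to 7.11%) library. Its share was 10.4 points higher in the combination than with the LTbR agonist, the largest upwards by the same rule, and the intervals did not overlap. Next came Ighv1-19, with 0, 0, 0 and 20 members, and of Ighv5-17, with 0, 0, 2 and 18. Ighv1-53 led in 0, 0, 10 and 24 members and Ighv1-50 in 0, 1, 10 and 7. Of the other named genes, Ighv1-22 led in 6, 1, 0 and 1 members, Ighv1-69 in 5, 4, 9 and 16 and Ighv8-12 in 1, 4, 9 and 0.

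**Figure D2:**
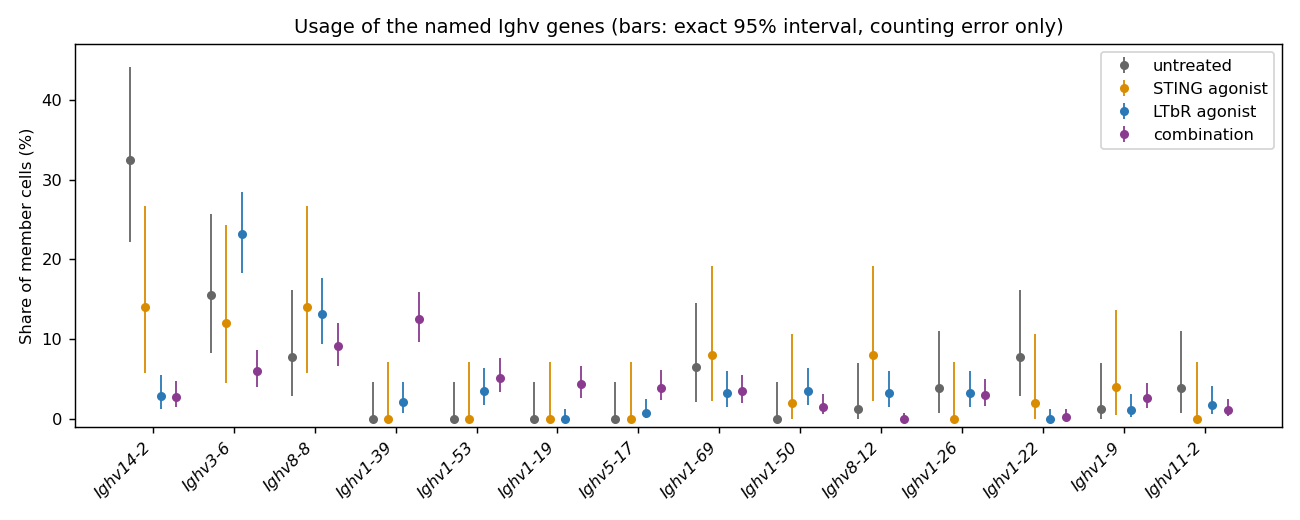
Share of members (vertical, %) led by each named gene (horizontal) in the 4 libraries, with exact 95% intervals as bars. Ighv14-2 stands highest in the untreated library at 32.5%, Ighv3-6 with the LTbR agonist at 23.1% and Ighv1-39 in the combination at 12.6%.

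By family, Ighv1 led in 27.3% (17.7 to 38.6%), 28.0% (16.2 to 42.5%), 36.3% (30.7 to 42.2%) and 56.1% (51.4 to 60.6%) of members, and the combination lay above the 3 others with no overlap. Counting each pair once changed the order of the other 3 libraries and left the combination highest. The untreated and STING agonist values then rest on 29 and 27 pairs, so no order is read from them. With each heavy and light V pair counted once per library, Ighv1 made up 51.7, 37.0, 51.4 and 59.1% of pairs, with intervals that all overlapped (32.5 to 70.6%, 19.4 to 57.6%, 41.5 to 61.2% and 51.3 to 66.5%). Counted the same way, Ighv14-2 went from 32.5 to 10.3% in untreated tumours, Ighv3-6 from 23.1 to 3.74% with the LTbR agonist and Ighv1-39 from 12.6 to 2.34% in the combination. In each case 1 pair held most cells of the gene.

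The breadth of usage was read from the chance that a pair of members drawn from 1 library shared the gene, which was 14.3, 6.04, 8.03 and 4.27%. Its inverse, the number of equally used genes that would give the same chance, was 7, 16.6, 12.5 and 23.4. Untreated tumours were the least even of the libraries and the combination the most. The top 3 genes took 55.8, 40.0, 39.9 and 27.7% of members. In all, 19, 23, 52 and 59 genes were used, and at an equal draw of 50 members 15.7, 23.0, 24.2 and 26.2 would be expected. By this number of genes the 3 treated libraries lay closer together than by the inverse chance. Over distinct pairs the inverse chance was 27.1, 70.2, 57.9 and 45.6, and the order of the libraries was a different one. These values rest on 29, 27, 107 and 171 pairs, and 70.2 exceeds the 23 genes used with the STING agonist. The untreated and STING agonist values are thus imprecise, and no order of the libraries is read from them.

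Light chains were not used by the rule. A light V gene could be called in 76, 50, 269 and 446 members (96.7% in all) with 10 or more light V UMIs, 80% or more from 1 gene. Kappa genes made up 96.1, 90, 80.7 and 85.0% of these calls. The called members fell into 29, 27, 107 and 171 distinct heavy and light pairs. Groups of 3 or more cells with the same pair held 68.4% (56.7 to 78.6%), 56.0% (41.3 to 70.0%), 63.6% (57.5 to 69.3%) and 62.8% (58.1 to 67.3%) of called members, and these intervals overlapped. The groups numbered 8, 7, 25 and 35, and the largest pair held 23.7, 12, 20.1 and 11.9% of called members.

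Of 298 distinct pairs, 26 were found in 2 or more libraries, 4 of them in 3 and 3 in all 4. The 3 pairs in all 4 libraries were Ighv3-6/Igkv12-44, Ighv8-8/Iglv1 and Ighv14-2/Igkv4-74, and together they held 186 cells. They made up 43.4% (32.1 to 55.3%), 20% (10.0 to 33.7%), 30.9% (25.4 to 36.7%) and 13.5% (10.4 to 17%) of called members. No barcode was a member in more than 1 library. Whether RNA passed between libraries was not tested.

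Ighv3-6/Igkv12-44 was found in 12, 3, 54 and 10 cells. It was the largest pair of the LTbR agonist library (20.1% of called members), where its Ighv UMIs ran from 23 to 1874 per cell with a median of 244. Igkv12-44 was called in 12 of 12, 3 of 6, 54 of 64 and 10 of 28 cells led by Ighv3-6, but in only 2 of 64, 1 of 44, 3 of 205 and 9 of 418 members led by another gene. Igkv12-44 was therefore rare outside its partner in every library. The 6 cells of Ighv3-1 and Igkv12-44, led by the gene nearest to Ighv3-6, numbered 2, 1, 3 and 0 by library. In the untreated library 8 of the 12 cells with Ighv3-6/Igkv12-44 had under 300 genes and their median depth was 1034.5 UMIs, against 14564 with the LTbR agonist. Under the limits that the study set on cells (300 to 5000 genes and at most 6% mitochondrial UMIs) only 4 of these 12 were left, and all 54 of the LTbR agonist library.

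The constant region of this pair differed between libraries. It was led by Ighg1 in 11 and by Ighg2b in 1 of 12 untreated cells, and by Ighg1 in 9 and Ighg2b in 1 of 10 combination cells. Under the LTbR agonist it was led by Ighg2c in 29, Ighg1 in 16 and Ighg2b in 9 of 54 cells, and with the STING agonist by Ighg2c in 2 and Ighg1 in 1 of 3. All 79 cells were IgG. One and the same V pair thus appeared with several IgG subclasses inside a library.

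Ighv8-8/Iglv1 was found in 3, 1, 26 and 40 cells. Iglv1 was called in 26 of 30 Ighv8-8 cells with the LTbR agonist and in 40 of 41 with the combination, against 14 of 239 and 19 of 405 members led by another gene. In the smaller libraries it was called in 3 of 6 and 1 of 7, and there a second pair, Ighv8-8/Igkv8-21, was found in 3 and 5 cells and in none of the other two libraries. Ighv8-8/Iglv1 was led by Ighg1 in 15 and Ighg2c in 9 of 26 cells with the LTbR agonist, and by Ighg2c in 23 and Ighg1 in 11 of 40 with the combination. It was IgA in 2 and Ighg1 in 1 of 3 untreated cells, which held 1884 to 4138 Ighv UMIs each. The single STING agonist cell, an Ighg1 cell with 83 Ighv UMIs, lay outside the limits on cells.

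Ighv14-2/Igkv4-74 was found in 18, 6, 3 and 10 cells and was the largest pair of both the untreated (23.7% of called members) and the STING agonist library (12%). It was led by Ighg1 in 15 and Ighg2c in 3 of 18 untreated cells and by Ighg1 in 6 of 6 with the STING agonist. With the LTbR agonist it was led by Ighg2b in 2 and Ighg1 in 1 of 3 cells, and with the combination by Ighg2b in 6 and Ighg1 in 4 of 10. Igkv4-74 was called in no more than 2 members led by another gene in any library. A second large Ighv14-2 pair, with Igkv4-57-1, was found in 6 untreated cells and in no other library.

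The combination had large pairs that were rare or absent in the other libraries. Ighv1-39/Igkv8-30 was found in 53 of its called members (11.9%) and in 2 with the LTbR agonist. It accounted for 53 of 57 Ighv1-39 cells of the combination with a light call. It was led by Ighg2b in 29, Ighg2c in 14, Ighg1 in 9 and Igha in 1, and its Ighv UMIs ran from 20 to 868 with a median of 70. Ighv1-19/Igkv4-80 was found in 17 cells (Ighg2c in 14 and Ighg1 in 3), Ighv5-17/Igkv12-46 in 14 (Ighg2c in 11 and Ighg1 in 3) and Ighv1-31/Igkv3-4 in 13 (all Ighg1), each in the combination alone. Other libraries had such pairs too. Ighv8-12/Igkv9-120 was found in 8 of 269 called members with the LTbR agonist and Ighv8-12/Igkv10-96 in 4 of 50 with the STING agonist, each in that library alone. With 1 library per group, a pair seen in 1 library cannot be told apart from one that was large in 1 of the pooled mice.

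**Figure D3:**
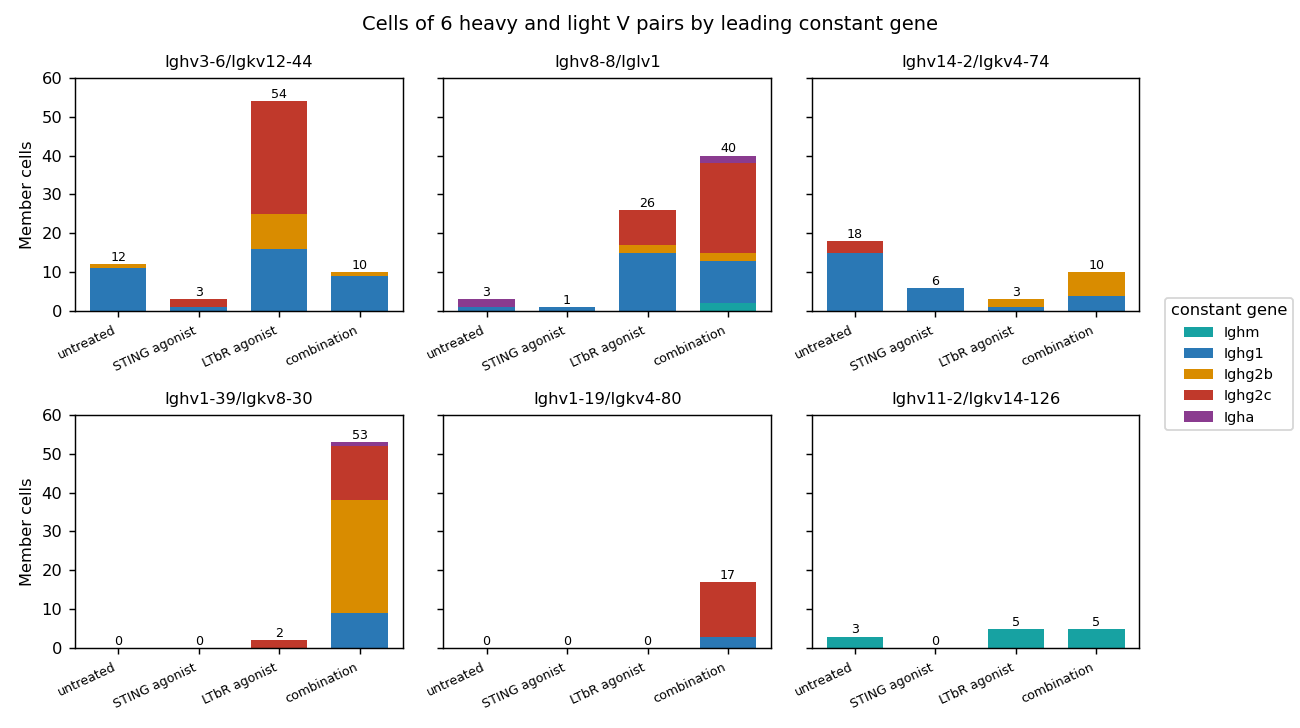
Member cells (vertical, count) of 6 heavy and light V pairs in the 4 libraries, coloured by the constant gene with most UMIs. Ighv3-6/Igkv12-44, Ighv8-8/Iglv1 and Ighv14-2/Igkv4-74 have cells in all 4 libraries, whereas Ighv1-39/Igkv8-30 has 53 in the combination and 2 with the LTbR agonist, and Ighv11-2/Igkv14-126 is all Ighm.

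Proliferation was read from Mki67, a gene of dividing cells, which had a UMI in 32.5, 46.0, 42.3 and 31.6% of members. Such shares take no account of depth. Scaled to the UMIs outside immunoglobulin genes and Jchain, its level in members was 376, 309, 278 and 239 CPM, highest in untreated tumours. For the STING agonist the interval included no difference (log2 -0.57 to 0.0042). For the LTbR agonist (log2 -0.43) and the combination (log2 -0.65) it lay below untreated. Mki67 was not past 2-fold in any agonist library. It was found in 28 of 54 cells with Ighv3-6/Igkv12-44 under the LTbR agonist (51.9%, 37.8 to 65.7%, median depth 14564 UMIs) and in 12 of 53 with Ighv1-39/Igkv8-30 under the combination (22.6%, 12.3 to 36.2%, median depth 5678 UMIs). The depths differed with these shares, and their part in the difference was not tested. Among cells with Ighv14-2/Igkv4-74 it was found in 7 of 18, 6 of 6, 2 of 3 and 2 of 10.

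The isotype of a member was that of the constant-region class with most UMIs (IgM, IgD, IgE, IgA or all IgG genes together), and every member could be called. Switched cells prevailed everywhere. IgG made up 65 of 77, 35 of 50, 201 of 281 and 298 of 462 members, or 84.4% (74.4 to 91.7%), 70.0% (55.4 to 82.1%), 71.5% (65.9 to 76.7%) and 64.5% (59.9 to 68.9%). IgM made up 5, 10, 59 and 119 members (6.49, 20, 21 and 25.8%) and IgA 7, 5, 21 and 45 (9.09, 10.0, 7.47 and 9.74%). IgD and IgE led in no member, so that their shares could be at most 4.68, 7.11, 1.30 and 0.795%. The IgG share was lower and the IgM share higher in the combination than in untreated tumours, with no overlap for either.

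Within IgG the subclasses differed between libraries as well. Ighg1 led in 51 of 65, 23 of 35, 97 of 201 and 117 of 298 IgG members, or 78.5% (66.5 to 87.7%), 65.7% (47.8 to 80.9%), 48.3% (41.2 to 55.4%) and 39.3% (33.7 to 45.1%). Ighg2c led in 16.9, 22.9, 37.3 and 34.6% and Ighg2b in 4.62, 11.4, 13.9 and 23.5%. Ighg3 led in 0, 0, 1 and 8 members, 5 of the 8 being led by Ighv7-3. The commonest Ighv gene of Ighg1 cells was Ighv14-2 in untreated tumours (22 of 51), Ighv8-8 with the LTbR agonist (25 of 97) and Ighv1-52 in the combination (14 of 117). In the combination the commonest gene was Ighv1-39 among Ighg2b cells (31 of 70) and Ighv8-8 among Ighg2c cells (24 of 103).

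Ighv usage differed by isotype inside the larger libraries. Among IgG members, Ighv1 led in 31.3% with the LTbR agonist (25 to 38.2%) and in 58.7% with the combination (52.9 to 64.4%), and in 23.1 and 25.7% in the untreated and STING agonist libraries. Among IgA members it led in 18 of 21 with the LTbR agonist (85.7%, 63.7 to 97.0%) and in 31 of 45 with the combination (68.9%, 53.4 to 81.8%). Among IgM members it led in 35.6% (23.6 to 49.1%) and 44.5% (35.4 to 53.9%). With the LTbR agonist the IgA interval lay above those of IgG and IgM, and with the combination it overlapped that of IgG and just that of IgM. With each pair counted once per isotype, which was chosen after the data were seen, Ighv1 made up 46.3, 51.7 and 72.7% of IgM, IgG and IgA pairs with the LTbR agonist and 47.2, 64.2 and 69.2% with the combination.

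In the larger libraries IgM members were more varied than IgG members. Their inverse chance of sharing a gene was 30.6 with the LTbR agonist and 23.5 with the combination, against 7.82 and 14.1 in IgG. In the smaller libraries it was 3.33 and 11.2 over 5 and 10 IgM cells, against 5.24 and 12.1 in IgG. Groups of 3 or more cells held 27.3% of called IgM members with the LTbR agonist (16.1 to 41.0%) and 32.7% with the combination (24.2 to 42.2%). For IgG these shares were 72.5% (65.7 to 78.7%) and 74.0% (68.6 to 79.0%), above those of IgM with no overlap in either library. As a mean of the 4 libraries' shares, the commonest IgM genes were Ighv11-2 (18.2%), Ighv3-6 (13.2%) and Ighv1-9 (11.5%), the commonest IgG genes Ighv14-2 (15.9%), Ighv3-6 (15%) and Ighv8-8 (14.2%), and the commonest IgA genes Ighv8-12 (20%), Ighv8-8 (9.44%) and Ighv1-26 (8.73%). These means rest in part on few cells. That of Ighv11-2 came largely from 3 of 5 untreated IgM cells, beside 0 of 10, 5 of 59 and 5 of 119 in the treated libraries, and that of Ighv1-9 largely from 1 of 5 and 2 of 10 cells of the untreated and STING agonist libraries. By cells, Ighv3-6 led in 0, 3, 6 and 15 IgM members. The IgA mean of Ighv8-12 came from 4 of 5 IgA cells of the STING agonist library, all with Igkv10-96.

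The leading light partner differed by isotype for some heavy genes and not for others. Over the 4 libraries, Ighv3-6 was paired with Igkv12-44 in 79 of 84 IgG cells, but its 24 IgM cells had 6 light V genes, of which Igkv1-110 was the commonest with 7. Ighv1-39 was paired with Igkv8-30 in 54 of 57 IgG cells and with Igkv5-48 in 4 of 5 IgA cells. Ighv8-8 had the same leading partner throughout, with Iglv1 in 2 of 2 IgM, 64 of 77 IgG and 4 of 5 IgA cells. Ighv1-53 had 7 light genes in 18 IgM cells and 7 in 11 IgG cells. Ighv1-69 had 10 in 29 IgG cells.

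Ighv11, Ighv12 and Ighv13 were used by IgM members only, in 13, 2 and 4 cells. Ighv11-2 led in 3, 0, 5 and 5 members, all 13 of them IgM and all 13 with Igkv14-126, a pair known in textbooks from B-1 cells that bind phosphatidylcholine. Their Ighv UMIs ran from 25 to 755 in untreated cells, from 46 to 103 with the LTbR agonist and from 29 to 232 with the combination. Igkv14-126 was called in no more than 2 members led by another gene in any library. Ighv12-3, the other heavy gene of that textbook specificity, led in 2 members, both IgM with Igkv4-91. Pooled over libraries, Ighv2 and Ighv7 made up 7.25 and 7.77% of 193 IgM members and 1.17% each of 599 IgG members, whereas Ighv8 made up 1.55% of IgM and 16.2% of IgG.

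**Figure D4:**
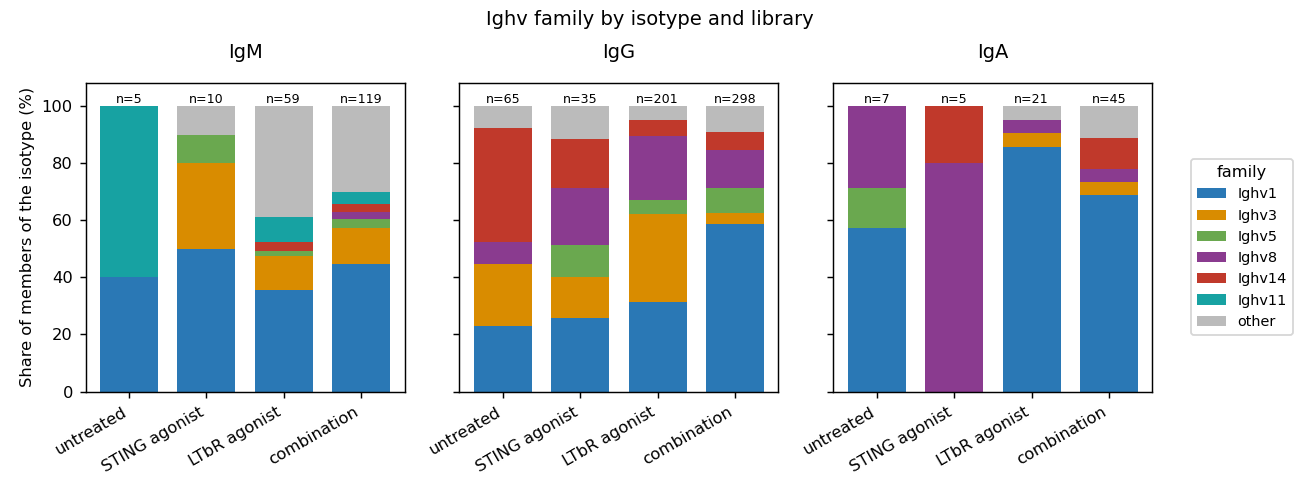
Share of IgM, IgG and IgA members (vertical, %) by Ighv family in each library, stacked to 100%, with the number of members above each bar. Ighv1 makes up 31.3% of IgG with the LTbR agonist and 58.7% with the combination, Ighv14 stands at 40.0% of IgG in untreated tumours, and Ighv11 appears under IgM only.

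By position, the 113 V genes were split in their order along the locus (RefSeq annotation, GRCm38) into the 38 nearest the constant genes, the 38 in the middle and the 37 farthest away. The near genes led in 42.9% (31.6 to 54.6%), 32.0% (19.5 to 46.7%), 19.2% (14.8 to 24.3%) and 21.4% (17.8 to 25.5%) of members. The untreated share lay above those of the LTbR agonist and the combination, and Ighv14-2 alone gave 25 of its 33 cells. With the LTbR agonist the near genes led in 40.7% of IgM members (28.1 to 54.3%) but in 14.9% of IgG (10.3 to 20.6%) and in 0 of 21 IgA (up to 16.1%). In the combination they led in 28.6% of IgM (20.7 to 37.6%), 18.5% of IgG (14.2 to 23.3%) and 22.2% of IgA (11.2 to 37.1%), which overlapped.

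The share of heavy-chain UMIs that fell on the V gene differed between libraries. Members held a median of 0.330, 0.471, 0.0781 and 0.0838 Ighv UMIs per heavy constant UMI. The same split was seen for light chains, with 2.63, 3.17, 1.03 and 1.14 light V UMIs per Igkc UMI in kappa members. It also held for single genes: Ighv3-6 cells had medians of 0.313, 0.353, 0.104 and 0.0738, and Ighv14-2 cells 0.355, 0.310, 0.149 and 0.121. For both genes the untreated and STING agonist libraries lay above the other two. Its cause was not tested. IgM members had lower ratios than IgG in every library (medians of 0.150, 0.203, 0.0419 and 0.0492 against 0.330, 0.529, 0.101 and 0.107).

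**Figure D5:**
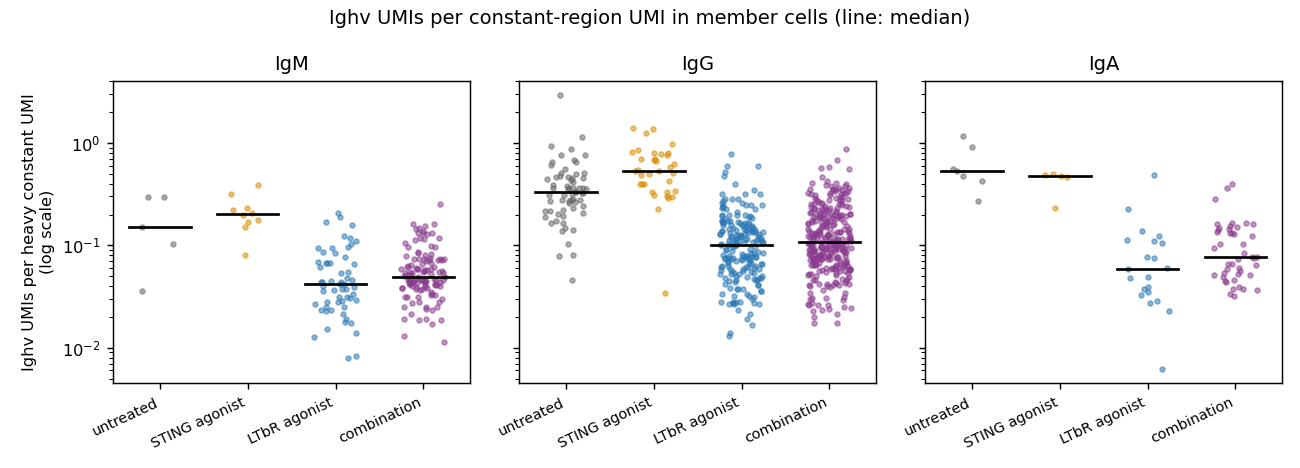
Ighv UMIs per heavy constant UMI in each member (vertical, log scale) by isotype and library, with a line at the median. The medians of IgG lie at 0.330 and 0.529 in the untreated and STING agonist libraries and at 0.101 and 0.107 with the LTbR agonist and the combination.

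This bears on who became a member. Of the 97, 59, 420 and 738 cells with 20 or more heavy constant UMIs, 79.4, 84.7, 66.9 and 62.6% were members. Another 19, 9, 132 and 273 had fewer than 20 Ighv UMIs, and 1, 2, 26 and 36 had none. Under the LTbR agonist 59 of 125 such IgM cells (47.2%, 38.2 to 56.3%) but 201 of 251 IgG cells (80.1%, 74.6 to 84.8%) were members, and with the combination 119 of 224 (53.1%, 46.4 to 59.8%) and 298 of 445 (67.0%, 62.4 to 71.3%). The rule thus took up a smaller share of IgM than of IgG cells in these libraries. Without the rule, IgM made up 11.3, 20.3, 29.8 and 30.4% of cells with 20 or more constant UMIs.

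Ighv levels were next compared over all deposited cells, as CPM of all UMIs of a library, where fewer cells that use a gene and less RNA per cell cannot be told apart. Of the 183 genes, 31, 46 and 53 had 200 or more UMIs over the agonist and untreated libraries. With the STING agonist 17 of 31 were 2-fold or more higher than untreated and 10 lower, against 4.45 and 6.01% of all features. Under the LTbR agonist 29 of 46 were higher and 11 lower, against 1.88 and 1.21%, and with the combination 40 of 53 were higher and 10 lower, against 2.08 and 2.55%. The median log2 ratio of the tested genes was 1.36, 5.94 and 7.33, and 1.36, 5.97 and 7.06 with genes at 0 set to 3 UMIs, whereas that of all features was -0.36, -0.07 and -0.16. A gene could pass the filter through the 1 library where it was high, and 4, 6 and 11 of the tested genes had no UMI in the untreated library, so these counts and medians are in large part set by the filter and nothing is read from them about the genes as a group. With the top cell of each gene left out, 8, 20 and 31 genes were higher and 7, 4 and 4 lower, of 17, 29 and 38 that passed.

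Among the named genes, Ighv1-39 stood at 0.0482 CPM (3 UMIs) in the untreated library and 163 CPM (8486 UMIs) in the combination, a log2 ratio of 11.50 (10.17 to 14). Ighv3-6 stood at 17.3, 56.6, 292 and 135 CPM, with log2 ratios to untreated of 1.71, 4.07 and 2.96. Ighv14-2 stood at 170, 44.6, 37.0 and 73.8 CPM, with log2 ratios of -1.93, -2.20 and -1.20. Ighv8-8 stood at 190, 109, 185 and 235 CPM and did not reach a 2-fold difference in any library. Ighv1-50 had no UMI in untreated cells and 1183, 2416 and 869 UMIs with the agonists. Single cells carried much of this, since the top cell held 99.7% of Ighv1-50 UMIs with the STING agonist, 100% of Ighv1-9 UMIs in untreated cells and 64.6% of untreated Ighv1-26 UMIs, against 10.2% of Ighv1-39 in the combination and 8.70% of Ighv3-6 with the LTbR agonist.

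A list of 30 genes of heavy-chain rearrangement, mutation, class switching, transcription and secretion was read in the members, as CPM of the UMIs outside immunoglobulin genes and Jchain. Of these, 13, 17 and 17 had 200 or more UMIs over both libraries. With the STING agonist 2 were 2-fold or more higher and 0 lower, against 5.39 and 4.61% of all features. With the LTbR agonist 5 were higher and 0 lower, against 3.67 and 3.71%, and with the combination 3 were higher and 0 lower, against 4.06 and 2.8%. The median log2 ratio of the list was 0.22, 0.35 and 0.19, beside 0.04, 0.05 and 0.03 over all features. Most of the genes past 2-fold were constant regions. Ighm stood at 16982, 74325, 80236 and 89359 CPM and Ighg2b at 4579, 18364, 38027 and 48550 CPM, and both were more than 2-fold above untreated with every agonist. Ighg2c stood at 34800, 30681, 78730 and 62818 CPM, and Ighg3 had 0, 0, 1364 and 8611 UMIs.

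Of the plasma cell factors, 1 was past 2-fold in 1 library. Prdm1, which drives plasma cell differentiation, stood at 353, 460, 509 and 403 CPM, Xbp1, which expands the secretory apparatus, at 1780, 2429, 2698 and 2454 CPM and Irf4, a factor that plasma cells need, at 711, 559, 833 and 662 CPM. Tnfrsf17 (BCMA), a survival receptor of plasma cells, stood at 42.7, 68.5, 91.1 and 61.2 CPM and was past 2-fold with the LTbR agonist (log2 1.07, 0.51 to 1.72). That ratio rested on 28 untreated UMIs and lay close to the limit. With all UMIs as the total, or within the limits on cells, 4 instead of 5 list genes were higher with the LTbR agonist. Pax5, the identity factor of B cells before the plasma stage, had 0, 0, 0 and 10 UMIs. The recombination genes Rag1, Rag2 and Dntt had no UMI in any of 870 members, which allows shares of up to 0.345% of cells with a UMI.

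Cells that met the minimum of UMIs but not the share were few, 11 in all. In 2 cells of the LTbR agonist library the UMIs were split between Ighv1-52 and Ighv1-61, which are 98.7% identical, and in 1 untreated cell between Ighv5-9-1 and Ighv5-4, which are 93.3% identical. In the others the genes were 52.9 to 84.3% identical, such as 1 cell with 921 UMIs of Ighv3-6 and 321 of Ighv10-1.

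Free RNA was read in T cells, taken as cells with 2 or more of Cd3d, Cd3e and Cd3g and no Cd79a UMI. An Ighv UMI was found in 10.9, 9.80, 15.6 and 23.2% of 1171, 541, 1656 and 1017 such cells, at median depths of 4455, 4603, 3512 and 2364 UMIs, and 1, 0, 0 and 1 of them met the rule. The T cell share was highest where members were most frequent. The Ighv UMIs of T cells were led by Ighv14-2 in untreated tumours (31.4%), by Ighv1-82 with the STING agonist (34.2%), by Ighv3-6 with the LTbR agonist (33.1%) and by Ighv1-39 with the combination (13.6%), so in 3 of 4 libraries by the commonest gene of the members. Some genes stood far from their share of member UMIs. With the STING agonist Ighv1-82 held 0.545% of member UMIs, and Ighv1-18 held 12.3% of T cell UMIs and 0% of member UMIs. In untreated tumours Ighv6-3 held 27.5% of T cell UMIs and 2.90% of member UMIs. A single Ighv UMI in a T cell was read as background, and whether all of it came from members was not tested. Whether low Ighv counts in cells with many constant UMIs were their own was not tested. Between library pairs 34 to 83 barcodes recurred, 11 members had a barcode that was also found in another library, and in 0 cases were both cells members.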

How the data were processed

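Raw UMI counts per gene and cell were deposited by the authors as 1 filtered matrix per library, made with Cell Ranger. Per the file headers the version was 8.0.1, whereas the submitters' processing notes name 7.1.0 and mm10, and the kit differs too, GEM-X 5′ in the labels but an earlier 5′ version in the methods. The 33696 features carry a later annotation than GENCODE M21, so no coordinates are given. The paper ran single-cell sequencing in more than 1 independent mouse experiment. The first of these experiments was not analysed here, so that each group had 1 library.

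All deposited cells were used, with no filter and no doublet caller. Of the 77, 50, 281 and 462 members, 58, 43, 274 and 458 lay within the limits that the study set on cells. Under 300 genes were found in 13, 2, 2 and 2 members. One alternative left out members with 10 or more UMIs of T cell, macrophage and neutrophil markers. The members and the gene lists were chosen with earlier results of these data known. Isotypes needed 3 constant-region UMIs. Light calls needed 10 light V UMIs and 80% from 1 gene. With 1 library per group no test was made. Intervals were exact Clopper-Pearson for shares, log-normal for ratios of shares and exact binomial for ratios of counts. They cover counting error only, since 1 library of pooled mice per group was used. Levels were compared as log2 ratios with 0.5 UMI added, for features with 200 UMIs over both libraries, and a difference was called at 2-fold. Total UMIs per library were 62248447, 85855398, 73704334 and 52109958. The named genes were the 5 with most members in each library, the 3 with the highest mean share per isotype, and the 3 that differed most upwards and downwards between the LTbR agonist and the combination. Of the pairs, the largest in each library was named. Others, such as Ighv11-2/Igkv14-126 and the pairs found in all or only 1 library, were named after their values were seen. All 183 Ighv symbols matched the RefSeq table. Scripts ran in Python 3.11.15 with numpy 2.4.6, pandas 2.3.3 and scipy 1.17.1 and were tested on simulated data. The alternatives changed the minimum of Ighv UMIs, the share from 1 gene, cell limits, depth, call rules and the weight of repeated pairs. One gene of the list and one allele of the tumour line are not reported here.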

Additional observations from a re-analysis of the deposited data

How the results depend on the processing

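Of 258 values that answer a comparison and were recomputed under an alternative, 231 stayed within the interval of the reported value (counts of genes within 1.5 times), and 27 moved. For the inverse chance no interval is reported above. Its limits for this count took the chance as a binomial share over separate pairs of members. In the libraries with 77 and 50 members these limits rest on few pairs, so staying within them says little. The 3 ratios of member shares to untreated stayed on their side of 1 under every alternative run, but the order of the libraries did change for shares and inverse chances, which are values of single libraries: with each pair counted once, the Ighv1 share went from 27.3, 28.0, 36.3 and 56.1% to 51.7, 37.0, 51.4 and 59.1%, and the inverse chance from 7, 16.6, 12.5 and 23.4 to 27.1, 70.2, 57.9 and 45.6. The pair values of the untreated and STING agonist libraries rest on 29 and 27 distinct pairs, so the changed order is not read as a difference between libraries. Of 100 values of single genes and pairs, 94 stayed and 6 moved. Thinning to 2000 UMIs, which left out 1995, 4632, 3910 and 7653 cells, gave member ratios of 0.599 (STING agonist) and 4.90 (combination), an Ighv1 share of 29.2% and an Ighv3-6 share of 29.2% with the LTbR agonist, IgG shares of 80.5% (LTbR agonist) and 71.0% (combination), and an Ighv1 share of 20% of IgM with the LTbR agonist. With each pair counted once, Ighv14-2 made up 10.3% (untreated), Ighv3-6 3.74% (LTbR agonist) and Ighv1-39 2.34% (combination). With each pair counted once per isotype, an alternative chosen after seeing the data, IgG made up 73.3% (untreated), 52.7% (LTbR agonist) and 45.3% (combination), and Ighv1 51.7% of IgG with the LTbR agonist. A minimum of 50 Ighv UMIs gave an IgG share of 69.7% (combination) and shares in groups of 3 or more of 55.9% (untreated) and 55.3% (combination). Within the limits on cells, Ighv3-6/Igkv12-44 made up 6.90% of untreated and Ighv8-8/Iglv1 0% of STING agonist called members. With a filter of 1 UMI, which tests more genes, 37, 68 and 80 Ighv genes were higher and 31, 24 and 16 lower with the STING agonist, the LTbR agonist and the combination. Without the top cell of each gene, 8 were higher with the STING agonist, and 4 were lower with the LTbR agonist and 4 with the combination. A filter of 50 UMIs gave 1 lower gene of the list with the LTbR agonist. The causes were not tested. No paired analysis was possible because each group had 1 library. The precision of the untreated and STING agonist shares is limited by 77 and 50 members.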
